A study of Mus musculus with 48 samples.

Results

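The genes described here are Serpinb1a, Serpinb1b and Serpinb1c, the mouse paralogs of the leukocyte elastase inhibitor, and Gdpd3, a glycerophosphodiester phosphodiesterase. They were chosen by name, as a set, for high liver signals in both Pparα deletions, although the Serpinb1b probe stayed at background. Their levels against WT mice are therefore given as a description, without a test. They are 4 of the 37074 gene names on the array. The files carry 5 probes for them among 56605 probes, and 3 of the 5 were among the 33323 probes tested. The tested probes were 1 each for Serpinb1a, Serpinb1c and Gdpd3. The only Serpinb1b probe and the other Serpinb1c probe were not well above the local background on enough arrays to be tested.

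SERPINB1 is a serpin of clade B, a family of intracellular protease inhibitors. It is abundant in neutrophils, where it inhibits elastase, cathepsin G and proteinase 3, and it also restrains inflammatory caspases. Humans have a single SERPINB1 gene, whereas mice carry several paralogs beside other clade B serpins on chromosome 13. GDPD3 is a membrane enzyme with lysophospholipase D activity, which releases lysophosphatidic acid and can act on N-acyl lysophospholipids. PPARα is a fatty acid-activated nuclear receptor that drives fatty acid oxidation genes in hepatocytes.

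Liver RNA of 48 male C57Bl6J mice was hybridised to 1-colour Agilent arrays, 1 mouse per array and 8 mice per group, and the replicates are separate mice. WT mice, Pparα-/- mice, which lack the receptor in every cell, and Pparα hep-/- mice were each fed a control diet (CTRL) or a high fat diet (HFD) with 60% fat. All were 20 weeks old and, per the labels, had 12 weeks of diet, although the study's text gives a shorter diet, and all were housed at thermoneutrality. Pparα hep-/- mice carried floxed Pparα alleles and 1 albumin-Cre transgene, so that deletion was driven in hepatocytes and other liver cells kept the receptor, and the WT mice were bought from a supplier while both deletion lines were bred in house. Line, origin and deletion therefore cannot be told apart in any comparison with WT mice. The deletion lines are also separate lines, so line and extent of deletion cannot be told apart between them.

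The signals are log2 normalized intensities of arrays, so the number of mice and the signal over background limit the precision. The median spot signal per array was 56 to 91 against a local background of 20 to 36, with 0 saturated spots. The summed level of 8 hepatocyte markers, Alb and Apoa1 among them, lay between 20.54 and 20.79 on all arrays, but the brightest markers set most of that sum. These were Alb, at the top of the normalized scale with group means of 18.87 to 18.92, Serpina1c (18.66 to 18.71) and Cyp2e1 (18.24 to 18.59). Of the 8 markers, 3 were called lower than in WT mice in Pparα hep-/- CTRL, Pparα-/- CTRL and Pparα-/- HFD mice (Apoa1, Cps1 and Hnf4a) and 1, Apoa1, in Pparα hep-/- HFD mice, while Cyp2e1 was called higher in both deletions on CTRL. In the same order of contrasts 24.7%, 34.2%, 45.7% and 26.7% of all tested probes were called in either direction. On CTRL, Hnf4a differed by -0.36 and -0.43 and Cps1 by -0.56 and -0.62 in Pparα hep-/- and Pparα-/- mice. The 2 Ppara probes stayed bright in the deletions. The brighter one averaged 14.57 ± 0.31 (SD, n = 8) in WT CTRL mice, 14.03 ± 0.33 (n = 8) in Pparα hep-/- CTRL mice and 13.89 ± 0.19 (n = 8) in Pparα-/- CTRL mice. Whether these probes lie in the deleted part is not given in the sources used here, so they do not check the genotypes. In whole liver RNA, fewer cells of a type and less RNA per cell cannot be told apart.

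The sequences below show which part of each gene the signals come from. The Serpinb1a probe lies at chr13:32934693-32934752 of mm9, on the minus strand. The tested Serpinb1c probe spans chr13:32976212-32978061 and the other one chr13:32975867-32976102, both on the minus strand. The Gdpd3 probe spans chr7:133914520-133914693 on the plus strand. Each probe has 60 bases, so the Serpinb1c and Gdpd3 probes, whose spans are 1850, 236 and 174 bases, are split across introns.
Serpinb1a, tested: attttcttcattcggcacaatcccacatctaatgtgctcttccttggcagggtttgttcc
Serpinb1c, tested: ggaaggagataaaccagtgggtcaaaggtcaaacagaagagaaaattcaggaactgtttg
Serpinb1c, not tested: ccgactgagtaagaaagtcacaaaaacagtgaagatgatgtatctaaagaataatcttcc
Gdpd3, tested: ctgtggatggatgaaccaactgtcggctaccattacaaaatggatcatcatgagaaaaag

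The RefSeq promoter table (GRCm38.p6) held upstream sequence for 3 of the 4 genes, in 4 entries, and Serpinb1a is named only. The 250 bases upstream of the Gdpd3 start and of both Serpinb1c starts are shown because these genes were high in the same mice. Capitals mark matches, on either strand, to AGGTCA, the nuclear receptor half-site, or to TATAAA, the TATA box. The Gdpd3 window is chr7:126766164-126766413 on the plus strand, and the Serpinb1c windows are chr13:32940601-32940850 and chr13:32898141-32898390 on the minus strand.
Gdpd3, upstream: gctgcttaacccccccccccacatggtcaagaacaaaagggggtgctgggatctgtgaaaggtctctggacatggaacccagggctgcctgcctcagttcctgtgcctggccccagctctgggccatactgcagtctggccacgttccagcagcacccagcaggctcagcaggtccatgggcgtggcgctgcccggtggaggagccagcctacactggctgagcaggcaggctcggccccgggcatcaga
Serpinb1c, upstream of the outer start: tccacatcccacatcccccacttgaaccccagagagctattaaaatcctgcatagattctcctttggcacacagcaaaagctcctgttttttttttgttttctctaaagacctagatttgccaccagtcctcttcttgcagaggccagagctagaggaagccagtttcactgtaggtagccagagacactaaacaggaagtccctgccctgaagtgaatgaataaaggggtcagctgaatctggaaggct
Serpinb1c, upstream of the inner start: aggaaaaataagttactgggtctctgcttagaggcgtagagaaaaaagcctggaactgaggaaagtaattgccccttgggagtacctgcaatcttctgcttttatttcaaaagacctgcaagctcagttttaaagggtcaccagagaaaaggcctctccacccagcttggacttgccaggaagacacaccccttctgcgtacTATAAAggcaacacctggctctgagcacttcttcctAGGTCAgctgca

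One window, that of the inner Serpinb1c start, held AGGTCA, beginning at position -12 from the start, and TATAAA, beginning at position -48. AGGTCA was found in 14% of the 32851 upstream windows of this length, and TATAAA in 12.4%. A pair of AGGNCA half-sites in a row, spaced by 1 base as PPARα binds them, was in none of the 4 windows and in 0.338% of all. The Serpinb1b window held none of the 3 motifs. A match of letters is a description and not a binding site.

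Serpinb1a, the closest mouse counterpart of human SERPINB1, had its lowest signals in WT CTRL mice and its highest in Pparα-/- mice. In WT CTRL mice the lowest, median and highest log2 signals were 6.69, 7.81 and 8.04, and in WT HFD mice 7.44, 9.54 and 9.91. In Pparα hep-/- mice they were 10.66, 11.86 and 12.89 on CTRL and 11.06, 11.48 and 11.99 on HFD. In Pparα-/- mice they were 11.65, 12.61 and 13.74 on CTRL and 11.86, 12.27 and 13.35 on HFD. Every mouse of either deletion was above every WT mouse on the same diet. The difference of group means amounted to 17.4-fold in Pparα hep-/- and 27.8-fold in Pparα-/- mice on CTRL, and to 5.04-fold and 9.93-fold on HFD. For scale, 0.519% of tested probes were higher without overlap in Pparα hep-/- and 2.93% in Pparα-/- CTRL mice, and 0.528% and 3.01% on HFD, but these contrasts chose the genes and nothing is read from the members' place in them.

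Gdpd3 was near background in WT livers and bright in every deletion liver. In WT mice the lowest, median and highest log2 signals were 5.36, 5.87 and 6.29 on CTRL and 5.55, 5.63 and 5.73 on HFD, and the probe was well above background on 6 of 8 and 1 of 8 arrays. In Pparα hep-/- mice they were 8.97, 10.27 and 11.41 on CTRL and 9.37, 10.93 and 11.42 on HFD. In Pparα-/- mice they were 11.60, 11.87 and 12.32 on CTRL and 11.14, 11.96 and 12.42 on HFD. No deletion mouse overlapped a WT mouse. The group means differed from WT by 21.1-fold in Pparα hep-/- and 65.5-fold in Pparα-/- CTRL mice, and by 29.6-fold and 77.8-fold on HFD. The last pair is set against WT HFD signals that were at background on all but 1 of 8 arrays, so these folds describe the signals and not RNA amounts.

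Serpinb1c followed the order of Serpinb1a at lower signal. In WT mice the lowest, median and highest log2 signals were 5.02, 5.26 and 5.82 on CTRL, where 0 of 8 arrays were well above background, and 5.26, 6.21 and 6.43 on HFD. In Pparα hep-/- mice they were 6.57, 7.93 and 8.83 on CTRL and 7.11, 7.56 and 8.02 on HFD. In Pparα-/- mice they were 7.59, 8.37 and 9.85 on CTRL and 7.81, 8.22 and 9.15 on HFD. Again the deletion mice lay above the WT mice of their diet without overlap. Because the probe was not well above background in WT CTRL mice, the fold there has only a bound. It takes, per array, the lowest signal among probes well above background where that is higher, and was at least 4.36-fold in Pparα hep-/- and at least 6.51-fold in Pparα-/- mice. On HFD the group means differed by 2.9-fold and 5.13-fold.

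Markers of other liver cells also differed from WT mice. On HFD, macrophage markers were called higher for 6 of 10 in Pparα hep-/- and 8 of 10 in Pparα-/- mice, stellate cell markers for 5 of 6 and 6 of 6, and neutrophil markers for 1 of 12 and 7 of 12, with 26.7% and 45.7% of all tested probes called in either direction. On CTRL the counts higher were 2 of 10 and 4 of 10 for macrophages, 1 of 6 and 1 of 6 for stellate cells, and 1 of 12 and 0 of 12 for neutrophils, with 24.7% and 34.2% of all probes called, and 1 neutrophil marker was lower in Pparα hep-/- and 1 macrophage marker in Pparα-/- mice. The summed macrophage level ranged from 14.27 to 16.60 in WT, 15.64 to 16.61 in Pparα hep-/- and 15.83 to 16.86 in Pparα-/- HFD mice, and from 14.71 to 16.26, 15.40 to 16.99 and 15.03 to 16.69 in CTRL mice of the same order. The summed stellate cell level ranged from 11.65 to 13.92, 12.86 to 13.33 and 12.72 to 13.66 on HFD, and from 11.75 to 13.38, 12.19 to 13.77 and 12.04 to 13.33 on CTRL. WT and deletion mice overlapped in these macrophage and stellate cell sums. Endothelial markers were called higher for 2 of 5 on CTRL and 3 of 5 on HFD in both deletions, and 1 of 5, Clec4g, was lower in Pparα-/- mice on both diets. Their sum ranged from 13.40 to 13.90 in WT, 13.64 to 14.15 in Pparα hep-/- and 13.96 to 14.23 in Pparα-/- HFD mice, without overlap between the first and the last, and from 13.10 to 13.76, 13.54 to 13.96 and 13.42 to 14.17 on CTRL. The adipocyte gene Cfd differed from WT by -6.93 in Pparα hep-/- and -7.87 in Pparα-/- HFD mice, and 1 and 2 of 3 adipocyte markers were called lower there, the other being Retn at -0.25. The adipocyte sums of 8.73 to 15.52 in WT HFD mice, whose upper values were set by Cfd alone, overlapped those of Pparα hep-/- HFD mice (7.89 to 9.49) and not those of Pparα-/- HFD mice (7.86 to 8.61). Of 7 cholangiocyte, 4 lymphocyte and 4 pancreatic acinar markers tested, at most 1, 2 and 2 were called higher and 1, 1 and 2 lower in any of these 4 contrasts. The part of all these markers in the members' levels was not tested.

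**Figure D1:**
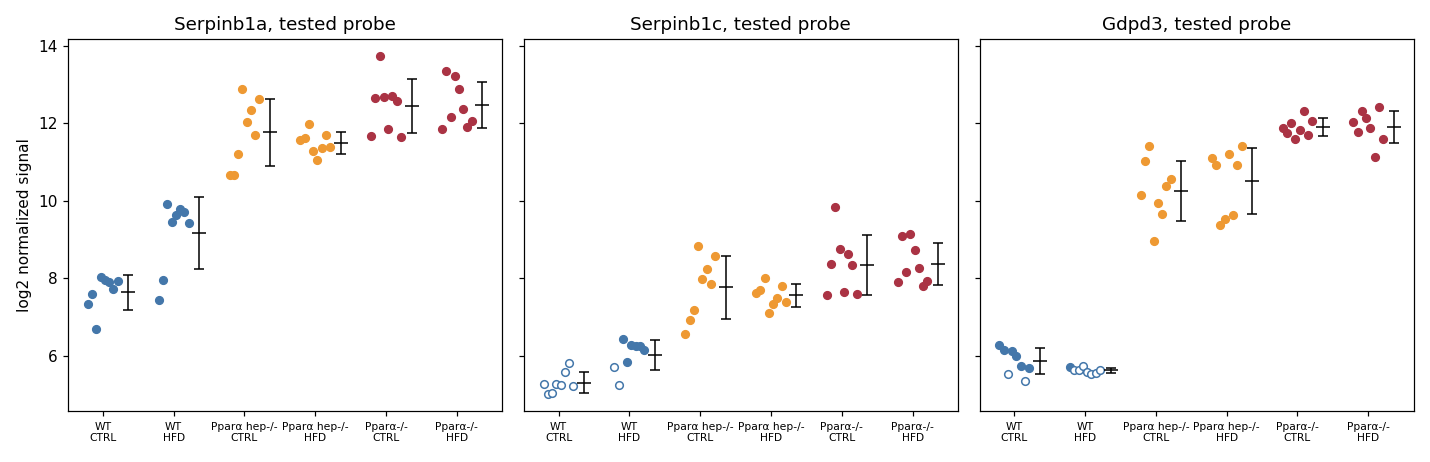
Log2 normalized signal (y axis) of the 3 tested probes in each mouse (points) of the 6 groups (x axis). Filled points are well above background and open points are not, and the black mark with bars is the mean ± SD of 8 mice. All deletion mice lie above the WT mice of their diet, and 2 WT HFD mice keep Serpinb1a signals of 7.44 and 7.97.

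The points of the plot by mouse show different shapes within the genotypes. Serpinb1a and Serpinb1c had a step with diet in WT mice, and Gdpd3 had a step between the deletions.

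In response to HFD, Serpinb1a rose in WT mice and Serpinb1c with it, whereas Gdpd3 did not pass the test. These tests ask whether diet moved the genes within a genotype, with the same mice, on both diets, that entered the choice of the genes. Of the 3 tested member probes 2 were called higher in WT mice (limma, adjusted p not above 0.05), against 8.6% of all tested probes. Serpinb1a rose by 1.82 on the log2 scale (SE 0.31, 95% interval 1.19 to 2.45, limma adjusted p = 5.03e-05), and 7 of 8 HFD mice lay above the CTRL mean. Serpinb1c rose by 0.88 (SE 0.26, interval 0.36 to 1.41, limma adjusted p = 0.0135), with the same count of mice, and its bound was at least 1.3-fold. Within the first and second wash batch the differences of means were 1.67 and 1.37 for Serpinb1a and 0.67 and 0.75 for Serpinb1c. In this contrast 0 of 12 neutrophil markers and 0 of 10 macrophage markers were called. For Serpinb1c the call was lost without array weights (0.71, adjusted p = 0.074) and after normexp background correction (0.54, adjusted p = 0.0889), and the value was 2.55 (adjusted p = 7.66e-06) with processed signals scaled to the 75th percentile, so its size was not fixed by these data. For Gdpd3 the difference was -0.31 (interval -0.93 to 0.31, adjusted p = 0.549).

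The WT HFD mice were not uniform. Replicates 1 and 2 had Serpinb1a signals of 7.44 and 7.97, inside the range of the CTRL mice, while the other 6 lay between 9.42 and 9.91. Replicates 1 and 2 had array weights of 0.537 and 0.343 in the fit, where all arrays ranged from 0.189 to 2.53. The same pair differed in Cfd, the gene of adipsin, a protease that adipocytes secrete. Cfd was 7.49 and 5.74 in these mice and 13.90 to 15.51 in the other 6, and Cfd as a whole rose by 5.79 in WT mice on HFD (SE 0.72, limma adjusted p = 3.81e-07). Of the 3 tested adipocyte markers Cfd was the one called, and Adipoq and Plin1 were not tested. Their summed level was 8.73 and 8.75 in the pair and 13.91 to 15.52 in the others, where Cfd alone set it. The means in WT CTRL and WT HFD mice were 7.39 and 7.48 for Lep and 5.82 and 5.85 for Retn. The same mice also had the highest neutrophil marker sums of their group, 15.60 and 16.14 against 15.07 to 15.29 in the other 6. With both left out, the difference of means was 2.00 for Serpinb1a and 0.90 for Serpinb1c, against 1.52 and 0.71 with all mice, given without a test because the mice were picked after their values were seen. The part of these marker differences in the response was not tested.

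In the deletions the diet response of the members did not pass the test. In Pparα hep-/- mice 0 of 3 probes were called, against 20.2% of all tested probes, although 2 of the 3 had an unadjusted p under 0.05. Serpinb1a differed by -0.56 (interval -1.10 to -0.03, limma adjusted p = 0.125), Serpinb1c by -0.46 (adjusted p = 0.138) and Gdpd3 by 0.28 (adjusted p = 0.484), which ran from 0.00 without replicate 4 of the CTRL group to 0.62 without replicate 6 of the HFD group. Without replicate 2 of the Pparα hep-/- CTRL group the Serpinb1a and Serpinb1c differences were -0.73 and -0.60, with adjusted p of 0.0328 and 0.0395. Without array weights they were -0.32 (adjusted p = 0.705) and -0.25 (adjusted p = 0.737). Within the 2 wash batches the differences of means were -0.16 and -0.43 for Serpinb1a and -0.16 and -0.27 for Serpinb1c. In Pparα-/- mice 0 of 3 were called, against 24.8% of all tested probes, and 0 of 3 had an unadjusted p under 0.05. The differences were 0.00 for Serpinb1a (interval -0.55 to 0.56), 0.02 for Serpinb1c (-0.45 to 0.49) and 0.06 for Gdpd3 (-0.49 to 0.61).

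**Figure D2:**
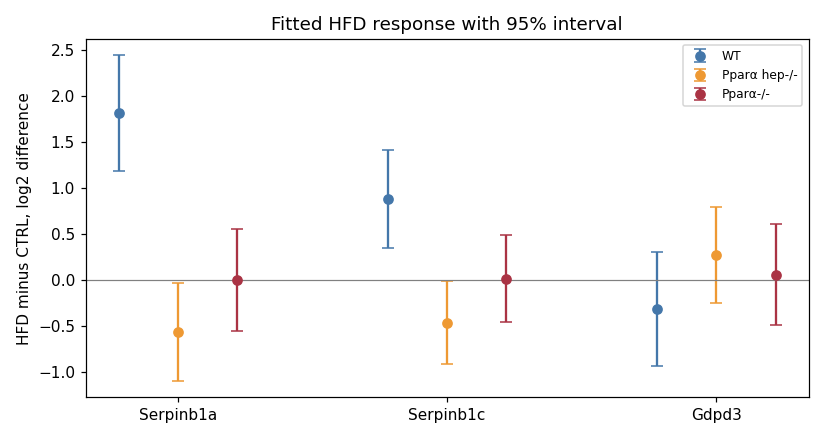
Fitted log2 difference between HFD and CTRL mice (y axis) for each tested member (x axis) in the 3 genotypes, with 95% intervals as bars. The WT intervals of Serpinb1a, 1.19 to 2.45, and Serpinb1c, 0.36 to 1.41, lie above 0.

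Whether the responses themselves differed was tested with interaction terms, for which the plot of fitted responses gives the separate intervals. The terms against WT mice are also the differences, HFD minus CTRL, of the contrasts that chose the genes. The Serpinb1a response was smaller than in WT mice by -2.38 in Pparα hep-/- (SE 0.41, limma adjusted p = 0.000224) and by -1.82 in Pparα-/- mice (SE 0.42, adjusted p = 0.00259). The plain differences of means, without array weights, were smaller, at -1.79 and -1.49. Over the alternative settings with a limma test the adjusted p reached 0.0384 and 0.0475. The Serpinb1c response differed by -1.34 (SE 0.34, adjusted p = 0.00992) and -0.86 (SE 0.35, adjusted p = 0.088), but both sizes rest on WT CTRL signals that were well above background on 0 of 8 arrays, where the WT response itself is bounded at 0.38 or more. Within the 2 wash batches the Serpinb1a differences were -1.83 and -1.79 for Pparα hep-/- and -1.61 and -1.37 for Pparα-/- mice. Without array weights the first Serpinb1c difference was -0.96 with an adjusted p of 0.242, and with scaled processed signals it was -3.04. Gdpd3 responses did not pass (0.59, adjusted p = 0.359, and 0.37, adjusted p = 0.58). Called were 2 of 3 probes for Pparα hep-/- against WT, with 10.4% of all tested probes called, and 1 of 3 for Pparα-/- against WT, with 14.3%. Between the deletions 0 of 3 responses differed, 0 of them at an unadjusted p under 0.05, against 3.42% of all tested probes.

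Gdpd3 was higher in Pparα-/- than in Pparα hep-/- mice on both diets, in a comparison between separate lines. On CTRL the signal in Pparα-/- exceeded that in Pparα hep-/- mice by 1.71 (SE 0.28, interval 1.14 to 2.27, limma adjusted p = 4.92e-06), with all 8 Pparα-/- mice above all Pparα hep-/- mice, and on HFD by 1.49 (SE 0.25, interval 0.98 to 2.00, adjusted p = 6.62e-06), where the groups overlapped. On CTRL it was the one called member of 3, against 25.2% of all tested probes, and 2.06% of tested probes were higher without overlap. Within the 2 wash batches the Gdpd3 differences were 1.96 and 1.48 on CTRL and 1.37 and 1.39 on HFD. Neutrophil markers were called higher for 3 of 12 on CTRL, Mpo, Cxcr2 and Csf3r, macrophage markers for 0 of 10 with 1 lower, and endothelial markers for 1 of 5 with 1 lower. Lymphocyte markers were higher for 2 of 4 and lower for 1, and 2 of 7 cholangiocyte markers, 1 of 6 stellate cell markers and 1 of 8 hepatocyte markers were lower. The part of these markers in the difference was not tested. Serpinb1a and Serpinb1c differed on CTRL by 0.37 (interval -0.20 to 0.94, adjusted p = 0.379) and 0.27 (interval -0.21 to 0.75, adjusted p = 0.463). The size of this pair varied with the processing, at 0.65 and 0.56 without array weights (adjusted p = 0.17 and 0.152), 0.97 and 0.90 within the first wash batch and 0.40 and 0.26 within the second, and 0.20 to 0.55 and 0.13 to 0.44 with single mice left out.

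On HFD all 3 tested members were higher in Pparα-/- than in Pparα hep-/- mice, against 15.2% of all tested probes higher. The Serpinb1a difference was 0.94 (SE 0.26, adjusted p = 0.00377) and the Serpinb1c difference 0.75 (SE 0.21, adjusted p = 0.00615), and in both the groups overlapped while 8 of 8 Pparα-/- mice lay above the mean of the other group. Within the 2 wash batches the differences were 1.19 and 0.82 for Serpinb1a and 1.08 and 0.59 for Serpinb1c. Neutrophil markers moved in the same contrast. Of 12 tested, 4 were called higher and 0 lower, and the granule genes Mpo, Camp and Ltf were higher by 1.85, 1.53 and 1.23. The summed neutrophil level was set mostly by Csf3r, whose mean was 15.13 in Pparα hep-/- and 15.17 in Pparα-/- HFD mice, and ranged from 15.18 to 15.28 in Pparα hep-/- and from 15.17 to 15.61 in Pparα-/- HFD mice. It ranged from 15.08 to 15.38 in WT CTRL, 15.07 to 16.14 in WT HFD, 14.84 to 15.18 in Pparα hep-/- CTRL and 15.11 to 15.40 in Pparα-/- CTRL mice. Endothelial markers were called higher for 2 of 5 and lower for 1, lymphocyte markers higher for 2 of 4, stellate cell markers for 1 of 6 and pancreatic acinar markers for 1 of 4, and 2 of 7 cholangiocyte markers and 1 of 8 hepatocyte markers were lower. Macrophage markers were called higher for 3 of 10 in this contrast, with summed levels of 15.64 to 16.61 in Pparα hep-/- and 15.83 to 16.86 in Pparα-/- HFD mice. Their part in the member differences was not tested.

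In order of group means, Serpinb1a ran from WT CTRL (7.65 ± 0.45, SD, n = 8) and WT HFD (9.16 ± 0.93) to Pparα hep-/- HFD (11.50 ± 0.29), Pparα hep-/- CTRL (11.77 ± 0.86), Pparα-/- CTRL (12.45 ± 0.70) and Pparα-/- HFD (12.48 ± 0.59). The 3 steps among the deletion groups did not pass the test between neighbours. For Gdpd3 the order was WT HFD (5.63 ± 0.07), WT CTRL (5.87 ± 0.33), Pparα hep-/- CTRL (10.27 ± 0.77), Pparα hep-/- HFD (10.52 ± 0.85), Pparα-/- CTRL (11.90 ± 0.23) and Pparα-/- HFD (11.91 ± 0.41). Diet pairs within each genotype did not pass the test.

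Serpinb1a and Serpinb1c rose and fell together from mouse to mouse, and Gdpd3 did not follow them. After removal of group and wash batch means, Pearson's r between Serpinb1a and Serpinb1c over 48 mice was 0.88 and Spearman's rho 0.91, each with a two-sided permutation p of 1e-05, the smallest these permutations can give, and 3e-05 after adjustment over 3 pairs. Without the 2 mice farthest from the median r was 0.91. Within groups r was 0.40 in WT CTRL mice, where Serpinb1c was at background, and 0.84 to 0.99 in the other 5 groups (exact permutation p, adjusted over 18 relations, 0.507 in WT CTRL mice and 0.000446 to 0.0594 in the others). Gdpd3 gave r of -0.24 with Serpinb1a (rho -0.27, permutation p 0.0967 and 0.0736, adjusted 0.131 and 0.0956) and -0.26 with Serpinb1c (rho -0.28, permutation p 0.131 and 0.0956, both unchanged by the adjustment). The close paralogs share sequence, and whether Serpinb1a RNA contributes to the Serpinb1c probe was not tested.

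**Figure D3:**
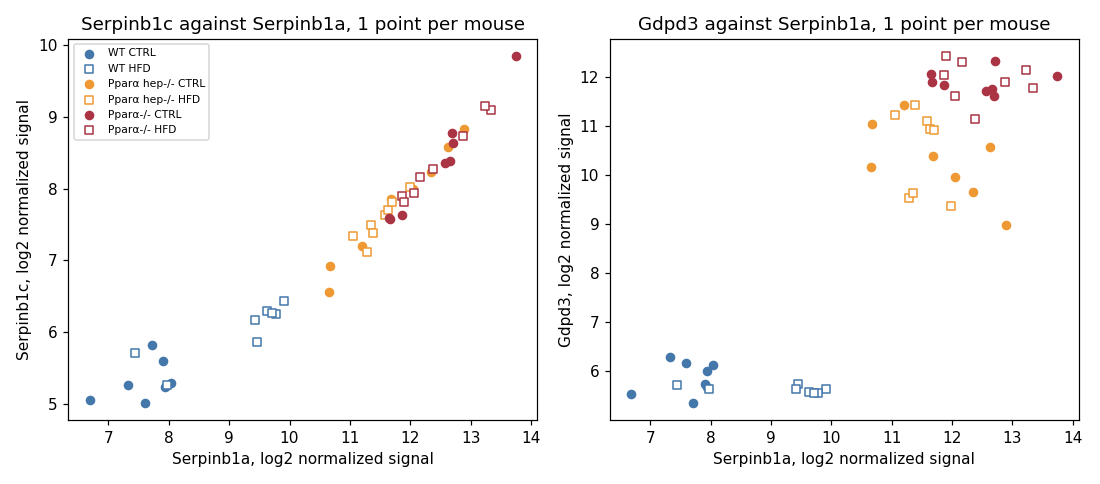
Log2 normalized signals of Serpinb1c (left) and Gdpd3 (right) on the y axes against Serpinb1a on the x axes, 1 point per mouse, with colours for genotype and filled or open symbols for CTRL or HFD. Serpinb1c rises with Serpinb1a within the deletion groups, whereas Gdpd3 separates genotypes without such a line.

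The second Serpinb1c probe and the Serpinb1b probe stayed at background in every group, unlike the line that the tested Serpinb1c probe forms with Serpinb1a. Serpinb1b was well above background on 3 of 48 arrays, with group means of 4.93 to 5.19. The untested Serpinb1c probe was also well above background on 3 of 48, with group means of 5.01 to 5.40. The 2 Serpinb1c probes disagreed in their differences from WT mice. On CTRL the tested one was higher by at least 2.12 on the log2 scale in Pparα hep-/- and at least 2.70 in Pparα-/- mice, while the other, in a fit without the filter, differed by 0.24 (SE 0.17) and -0.04 (SE 0.18). On HFD the untested probe differed by -0.39 and -0.37 (SE 0.16 in both), opposite in sign to the tested one. For Serpinb1b the 4 differences lay between -0.22 and 0.21. These values describe signals at background, which do not give RNA amounts.

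**Figure D4:**
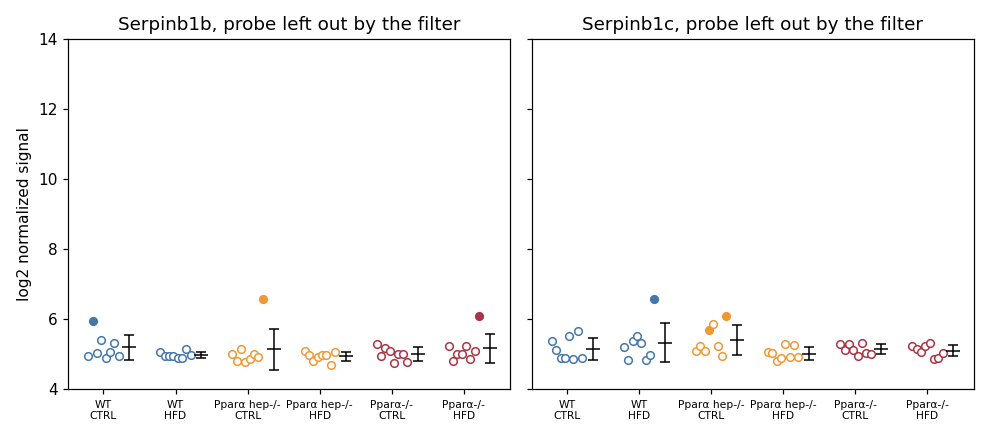
Log2 normalized signal (y axis) of the Serpinb1b probe and the untested Serpinb1c probe in each mouse of the 6 groups (x axis), with filled points well above background and mean ± SD of 8 mice in black. Most points are open and lie near 5, with single mice up to 6.57.

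The other clade B serpins differed from WT by at most 1.33. Of 25 listed genes 24 were on the array and 7 were tested. Against WT, 2 were higher and 0 lower in Pparα hep-/- CTRL mice, 4 and 0 on HFD, 3 and 0 in Pparα-/- CTRL mice, and 3 and 1 on HFD, where 24.7%, 26.7%, 34.2% and 45.7% of all tested probes were called in either direction. The list medians were 0.30, 0.40, 0.34 and 0.21, and those of all tested probes -0.01, -0.02, -0.02 and -0.03. Serpinb6b was higher by 1.33 and 1.11 in Pparα hep-/- mice on CTRL and HFD, and by 0.75 and 0.96 in Pparα-/- mice. Serpinb9, an inhibitor of granzyme B, was higher by 0.81 in Pparα hep-/- and 0.43 in Pparα-/- CTRL mice. Serpinb8 was higher by 0.69 in Pparα-/- CTRL mice. Serpinb6a, an inhibitor of cathepsin G, was higher by 0.59 in Pparα hep-/- and 1.07 in Pparα-/- HFD mice, where Serpinb6c was higher by 0.57 and 1.06. In response to HFD, Serpinb9 rose by 0.53 in WT mice as the one called member of the list, with 8.6% of all tested probes called higher. In Pparα-/- mice 5 of 7 were called, against 24.8% of all tested probes. Serpinb6a, Serpinb6b, Serpinb6c and Serpinb9 rose and Serpinb8 fell by 1.29. Serpinb8 also fell in Pparα hep-/- mice, by 0.63 (limma adjusted p = 0.0129), as 1 of 7 called, against 20.2% of all tested probes.

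**Figure D5:**
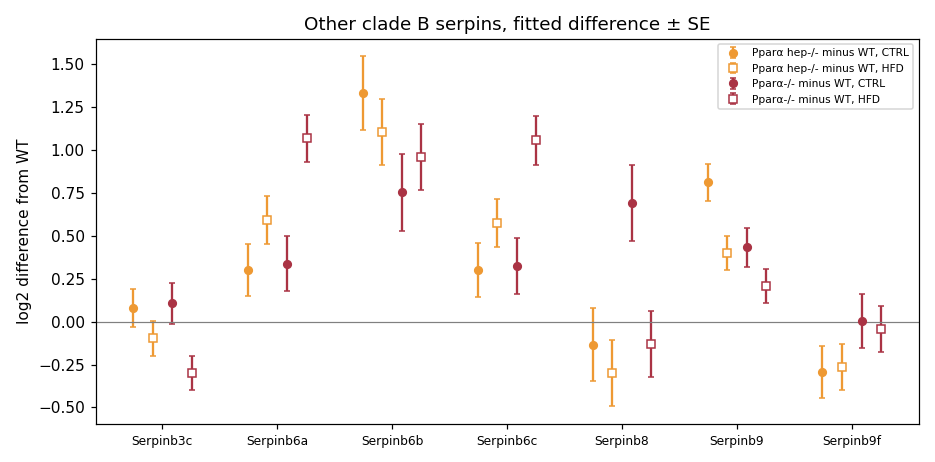
Fitted log2 difference from WT (y axis) with SE bars for the 7 tested clade B serpins other than Serpinb1 (x axis), in both deletions on both diets. Serpinb6b lies between 0.75 and 1.33 in all 4 comparisons.

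Proteases that SERPINB1 inhibits, and genes of their processing, were 9 on the list and 8 tested. Casp1, the inflammatory caspase, was higher than in WT mice by 0.46 and 0.59 in Pparα hep-/- mice on CTRL and HFD and by 0.50 and 0.89 in Pparα-/- mice, and Gsdmd, the pore-forming gasdermin D, by 0.32, 0.37, 0.26 and 0.38. Elane, neutrophil elastase, was lower in Pparα-/- mice by -0.36 on CTRL and -0.54 on HFD, and lower than in Pparα hep-/- mice by -0.53 and -0.39. In Pparα hep-/- mice the gene called lower was another on each diet, Ctsc, the cathepsin that activates these proteases, by -0.45 on CTRL and Prtn3, proteinase 3, by -1.08 on HFD. Prtn3 varied widely in WT HFD mice, with an SD of 1.99 against 0.20 in Pparα hep-/- HFD mice. In the latter it was well above background on 1 of 8 arrays. On HFD the Casp4 difference from WT was 0.63 with hepatocyte and 0.74 with whole-body deletion, and Ctsc was higher by 0.44 in Pparα-/- HFD mice. Between the deletions on HFD, Ctsg, cathepsin G, and Ctsc were higher in Pparα-/- mice by 0.78 and 0.60, so that 2 of 8 were higher and 1 lower there, with 15.2% of all tested probes higher. In all, 2 genes of 8 were higher and 1 lower in Pparα hep-/- CTRL mice, 3 and 1 on HFD, 2 and 1 in Pparα-/- CTRL mice and 4 and 1 on HFD, with list medians of 0.05, -0.16, 0.04 and 0.29, where 24.7%, 26.7%, 34.2% and 45.7% of all tested probes were called in either direction.

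Genes around Gdpd3 in lipid metabolism changed in both directions. Of 4 tested genes of its family, 0 were higher and 1 lower in Pparα hep-/- CTRL mice, 1 and 1 on HFD, 1 and 2 in Pparα-/- CTRL mice and 0 and 1 on HFD, with 24.7%, 26.7%, 34.2% and 45.7% of all tested probes called in either direction. Gde1 was lower in both deletions on both diets, by -0.44 and -0.27 in Pparα hep-/- and -0.44 and -0.44 in Pparα-/- mice. Gdpd1 was higher by 0.54 in Pparα hep-/- HFD mice and differed by -0.42 in Pparα-/- CTRL mice, where Gpcpd1 was higher by 1.01. Of 17 tested genes of lysophosphatidic acid and N-acylethanolamine metabolism, 6 were higher and 0 lower in Pparα hep-/- CTRL mice and 8 and 3 in Pparα-/- CTRL mice, with list medians of 0.17 and 0.06 and 24.7% and 34.2% of all tested probes called. On HFD 5 were higher and 2 lower in Pparα hep-/- and 5 and 5 in Pparα-/- mice, with list medians of -0.01 and 0.04 and 26.7% and 45.7% of all tested probes called. Enpp2, the gene of autotaxin, a secreted lysophospholipase D, was higher by 0.60 and 0.49 on CTRL and by 0.64 and 0.49 on HFD. Ppap2b, a lipid phosphate phosphatase, was higher by 0.60 and 0.72 on CTRL, Ppap2a by 0.75 in Pparα-/- CTRL and 0.54 in Pparα-/- HFD mice, and Agpat9 by 2.50 in Pparα-/- CTRL mice. Lpar5, a receptor of lysophosphatidic acid, was higher by 0.57 in Pparα hep-/- CTRL mice and differed by -0.67 in Pparα-/- HFD mice, where Agpat2 differed by -0.65. In Pparα hep-/- HFD mice Lpar1 was higher by 0.50 and Napepld, which makes N-acylethanolamines, by 0.47. Agpat9 rose by 2.28 in WT mice on HFD and by 2.90 in Pparα hep-/- mice, and was higher by 3.40 in Pparα-/- than in Pparα hep-/- CTRL mice. It varied widely among CTRL mice, with an SD of 1.83 in WT and 1.71 in Pparα hep-/- mice.

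Chromosomal neighbours differed from WT mice in both directions. Of 10 tested neighbours of Serpinb1, 4 were higher and 2 lower in Pparα hep-/- CTRL mice and 3 and 1 in Pparα-/- CTRL mice (list medians 0.23 and 0.03), with 24.7% and 34.2% of all tested probes called, and the largest of these called changes was that of Serpinb9 in the former, at 0.81. Wrnip1 differed by 0.74 and 0.59, Bphl by 0.50 and 0.52 and Ripk1 by -0.44 and -0.58. On HFD 3 were higher and 1 lower in Pparα hep-/- and 4 and 1 in Pparα-/- mice, with 26.7% and 45.7% of all tested probes called, and Tubb2a was higher by 1.73 in the former and Tubb2b by 1.02 in the latter. Of 12 tested neighbours of Gdpd3, 0 were higher and 5 lower in Pparα hep-/- CTRL mice and 1 and 2 in Pparα-/- CTRL mice (list medians -0.11 and -0.02), where Coro1a, a gene of leukocytes, was higher by 0.96 and Aldoa lower by -0.73. On HFD 1 was higher and 3 lower in Pparα hep-/- and 1 and 1 in Pparα-/- mice, and Coro1a was the higher one in both, by 0.81 and 1.57.

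The genes most like each member over the 48 arrays, after removal of the wash batch term, were ranked by Pearson's r among 21914 gene names, as a description. Group means were left in, so r includes the genotype differences that chose the members. For Serpinb1a they were Fam89a (0.89), Dpys (0.89), Anxa8 (0.88), Arv1 (0.88) and Poldip3 (0.88). For Serpinb1c they were Sco2 (0.88), Sh2d3c (0.87), Tymp (0.86), Arv1 (0.86) and Anxa8 (0.85). For Gdpd3 they were Poldip3 (0.94), the transcript ENSMUST00000068836 (0.93), Cript (0.88), Omd (0.88) and Nup133 (0.87). The transcript's probe lies at chr7:133918973-133919032 of mm9 on the minus strand, 4.28 kb from the Gdpd3 probe and in the opposite orientation, and its group means ran from 5.22 in WT HFD to 6.54 in Pparα-/- CTRL mice. Means in WT CTRL and HFD mice were 7.95 and 9.50 for Fam89a and 6.76 and 8.09 for Anxa8. This diet step is partly fixed by their choice for likeness to Serpinb1a and was not tested. Poldip3 and Arv1, also chosen so, had 12.57 and 12.50, and 8.12 and 8.28. Of the 12 distinct names 4 lie on chromosome 15, which holds 4.11% of the names compared and also Ppara, at 2.68 to 46 Mb from its probe, and 3 lie on chromosome 8, which holds 5.35%. The names are not all separate loci. The Sco2 and Tymp probes lie at chr15:89202216-89202275 and chr15:89202362-89202421. Those of Fam89a and Arv1 lie at chr8:127264178-127264237 and chr8:127257913-127257972. Because the ranking also used the genotype differences, nothing is read from these counts.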

How the data were processed

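The authors hybridised 1 liver per array, extracted spots with Feature Extraction 10.10.1.1 and deposited the scanner files. The median spot intensity used here was, per the file headers, not background subtracted. A deposited table of log2 values had been corrected for the wash batch and quantile normalized by the authors and served as an alternative.

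Intensities were log2 transformed, outlier spots left out, and spots averaged per probe. Probes needed a signal well above background in 4 or more of the 8 mice of any group, and were quantile normalized over 48 arrays. limma 3.58.1 (R 4.3.3) was fitted with group means, array weights and a term for the wash batch, with Benjamini-Hochberg adjustment within each contrast over all 33323 probes. The fit was tested on simulated data. Related genes were named from the 3 largest called changes per list and comparison described, with other called genes where a count of calls is spelled out, and like genes for the 5 highest correlations, by the brightest tested probe. The members and lists were chosen with earlier results of these data known. Alternatives covered background correction, scaling, weights, blocks, filters, outlier spots, samples fitted, single mice left out and values within wash batches. Probe positions are mm9 as in the files, and those of the upstream windows are GRCm38.p6.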

Additional observations from a re-analysis of the deposited data

Results flagged for a closer look

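The HFD response of Serpinb1a differed between genotypes by the interaction test, at -2.38 for Pparα hep-/- minus WT and -1.82 for Pparα-/- minus WT mice. That of Serpinb1c differed at -1.34 for Pparα hep-/- minus WT mice, where WT CTRL signals were well above background on 0 of 8 arrays. Without array weights this difference was -0.96 and did not pass (adjusted p = 0.242).

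Of 30 sets of 8 mice (5 probes in 6 groups), 3 held a mouse far from the others, all in probes near background, and about 1 set in 20 is marked by chance. The Serpinb1b probe read 6.57 in Pparα hep-/- CTRL replicate 8 and 6.09 in Pparα-/- HFD replicate 8. The untested Serpinb1c probe read 6.56 in WT HFD replicate 8.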

How the results depend on the processing

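Called Gdpd3 and Serpinb1a differences kept their direction and call under all alternatives with a test. Uncalled responses near 0 in Pparα-/- mice changed sign in some, as Gdpd3 did at -0.01 with slide as a block and Serpinb1a at -0.07 with scaled processed signals. For Serpinb1c in WT mice the response was 0.71 without array weights and 0.54 with normexp, both short of the threshold, so that 1 of 3 members was called, with 4201 and 6443 of 33323 probes called, and 2.55 with scaled processed signals. Its response difference from WT was -0.96 in Pparα hep-/- mice without array weights, with 1 member called, and -0.83 within the first wash batch, and -2.54 in Pparα-/- mice with processed signals scaled to the 75th percentile, where 2 members and 4941 of all probes were called. The cause was not tested. Over all probes, leaving out the array weights lowered the calls from 6735 to 1270 for the Pparα hep-/- response, 8273 to 4034 for the Pparα-/- response and 10188 to 6047 between the deletions on HFD. For the response differences it lowered them from 3472 to 298 (Pparα hep-/- minus WT), 4781 to 1740 (Pparα-/- minus WT) and 1139 to 110. The first of these differences was at 1226 without a filter, 2185 without the wash term, 2276 with the replicate block and 2122 with slide as a block. Without a filter the others were 2528 and 399, and the Pparα hep-/- response 3578, and without the wash term 3099 for the second and 4236 for that response.

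With single mice left out, the Pparα hep-/- response ran from -0.73 to -0.38 for Serpinb1a and from -0.60 to -0.28 for Serpinb1c, and 0 to 2 members were called, the 2 only without replicate 2 of the CTRL group. For Gdpd3 that response ran from 0.00 to 0.62 and its difference from WT from 0.30 to 0.94, lowest without replicate 4 of the Pparα hep-/- CTRL group and highest without replicate 6 of the HFD group, with 0 calls. Over all probes the calls for the Pparα hep-/- response fell to 4202 without HFD replicate 6 and 4436 without CTRL replicate 4 of that genotype, and those for its difference from WT to 2118 without WT HFD replicate 7 and 2259 without WT CTRL replicate 3. The calls for the response difference between the deletions fell to 550 without Pparα hep-/- HFD replicate 6, and to 722 to 752 without Pparα hep-/- CTRL replicate 8, Pparα-/- CTRL replicate 6, or Pparα-/- HFD replicate 7 or 8. Each tested member has 1 tested probe, so averaging probes gave no other value.

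Replicate numbers are shared between groups and were not taken to pair the mice. The 120 same-number pairs had residual correlations of -0.46 to 0.69, with a median of 0.05. Of 48 arrays 9 correlated best with their own number. The share expected without pairing was not computed, so these values cannot exclude a pairing. With the replicate block the WT response was 1.74 for Serpinb1a and 0.82 for Serpinb1c, Gdpd3 in Pparα-/- exceeded Pparα hep-/- mice by 1.69 and 1.41, and it changed no member's call in the 8 comparisons. Signal over background limits Serpinb1b, the second Serpinb1c probe and all WT values of Gdpd3 and Serpinb1c.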
